A study of Mus musculus with 4 samples.

Results

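Cholesterol synthesis and sterol handling are described here through 32 genes chosen by name. They are 18 enzymes of synthesis and 14 genes that regulate, move, store or export sterols. Of the 32, 29 had a probe set that the platform annotation ties to a single gene symbol, out of 18194 such genes in all. Acat2 (cytosolic thiolase), Soat1 (cholesterol esterification) and Nr1h2 (the receptor LXR beta) were not analysed here. Each gene is given by its brightest probe set, the one with the highest mean over the arrays, and its other probe sets serve as a check. The samples are group 2 innate lymphoid cells (ILC2), tissue lymphocytes that make type 2 cytokines, from C57BL/6 mice. They had spent 2 weeks in culture with IL-7 and IL-33 on OP9-DL1, a stromal cell line carrying a Notch ligand, and were sorted as ICOS-positive before RNA extraction. Affymetrix arrays were run on 2 samples of littermate controls and 2 of mice with a deletion of Ets1, an ETS family transcription factor gene. The sources used here do not give which cells carry the deletion or what drives it. The single comparison asks which genes depend on Ets1 in these cells; every difference is Ets1-deleted minus control, with n = 2 arrays per group.

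Cells build cholesterol from acetyl-CoA through mevalonate, isoprenoid units, squalene and lanosterol. When sterols in the endoplasmic reticulum run low, the escort protein SCAP carries the transcription factors SREBP-1 and SREBP-2 to the Golgi for cleavage, and the freed factors switch on the enzymes of synthesis and of sterol uptake. INSIG proteins hold SCAP back when sterols are plentiful. Surplus sterol derivatives activate the LXR receptors, which induce the export pumps ABCA1 and ABCG1 and the SREBP-1 gene. Lymphocytes that are activated and divide need sterols for new membrane.

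On its brightest probe set, Ets1 stood at 1272 and 1231 in the controls and at 138 and 180.2 after deletion, in intensity units, so the labelled deletion showed on both. Of the chosen genes, 28 were bright enough to test, with a mean at or above 97.4 intensity units, and the remaining measured gene, Nr1h3, was not. For all 28 the mean of each group lay above that limit. Only Abca1 had an array below it. Array medians lay between 96.5 and 97.7. Of 10 ILC2 markers 9 were measured, all above the limit, with summed intensities of 22152 and 20010 in the controls and 23405 and 22679 in the Ets1-deleted arrays. Of these 9, 4 were called higher, among them Thy1 (1.91) and Rora (1.29), and 2 lower, Klrg1 (-1.60) and Icos (-0.38). Summed myeloid, mast cell and T cell markers were higher in both Ets1-deleted arrays, and stromal markers lower. The 8 myeloid markers gave 1395 and 1459 in the controls against 2438 and 2343, with 6 called higher. The 8 mast cell markers gave 916 and 888 against 2788 and 2539, with 5 called higher. Much of that difference was Cpa3, without which the sums were 830.03 and 809.5 against 1291 and 1277. The 6 T cell markers gave 2300.3 and 2344 against 4438 and 4493, with 3 called higher. The 8 stromal markers gave 2491 and 2241 against 1929 and 2029, with 2 called lower. Much of that difference was Pdgfrb, at 594 and 604 against 293 and 380, without which the sums of the groups overlapped. Among the called markers, the control mean was below the limit for Adgre1 (73.0 and 84.7), Cpa3 (85.9 and 78.3) and Cd3e (103 and 81.6). The Ets1-deleted mean was below it for Vcam1 (92.5 and 96.8). Each was tested through its higher group alone, so the direction of its call was fixed by the limit. Below the limit were all 4 measured B cell markers, with sums of 291.3 and 294 against 290.4 and 299, Cd4, Cd8a and Cd5, Cd14 and Itgam, Fcer1a and Ms4a2, and Pdgfra and Dlk1. The part of these markers in the results on sterol genes was not tested. In bulk RNA, a change in the share of cells that express a gene and a change of its RNA per cell cannot be told apart.

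Most synthesis genes were higher in the Ets1-deleted arrays, while the handling genes went both ways. Of 17 tested synthesis genes, 11 were called higher (64.7%) and 1 lower (5.88%) at an adjusted p of 0.05 in limma, against 13.9% higher and 12.8% lower among all 10873 tested genes. The median log2 difference of the 17 was 0.43, and that of all tested genes -0.0037. The groups did not overlap for 12 synthesis genes that were higher (70.6%) and 1 that was lower, against 30.9% and 31.7% of all tested genes. Of 11 tested regulation and handling genes, 5 were called higher (45.5%) and 2 lower (18.2%). Their median was 0.21 over the 11 tested and 0.13 over the 12 measured. Calls borrow variance across genes: with each gene's own variance alone, 1 of the 28 (Fdps) and 13 of all tested genes passed. Without control array 2, 7 synthesis genes passed as higher and 0 as lower, and 3 handling genes as higher. Without Ets1-deleted array 1, 2 handling genes passed as higher and 1 as lower. Without control array 1, 1 handling gene passed as lower.

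**Figure D1:**
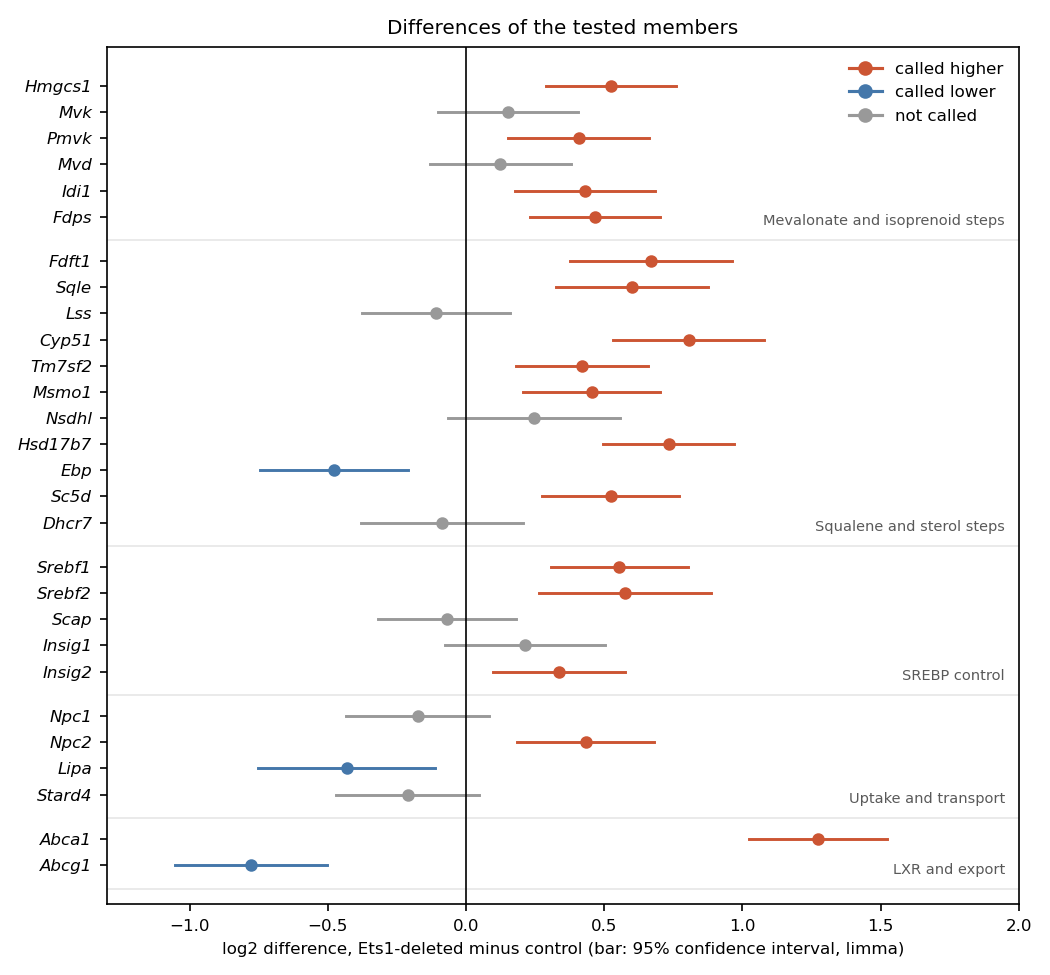
Log2 difference of each of the 28 tested genes, Ets1-deleted minus control (horizontal axis), with its 95% confidence interval from limma, grouped by role and coloured by call. The 11 synthesis genes called higher lie between 0.41 and 0.81, Ebp at -0.48 is the synthesis gene called lower, and Abca1 (1.27) and Abcg1 (-0.78) mark the 2 ends of the whole set.

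In the mevalonate and isoprenoid part, 4 of 6 genes rose and none fell (0 called lower). Hmgcs1 makes HMG-CoA, the entry compound of the pathway. Intensities were 4407 and 4251 in the controls against 6222 and 6225 with Ets1 deleted, so the groups lay well apart and each pair nearly coincided. The rise was 1.44-fold, a log2 difference of 0.52 ± 0.11 (SE, limma; adjusted p = 0.00338). Fdps, which joins isoprenoid units to farnesyl diphosphate, read 929 and 929 against 1281 and 1285 and rose by 0.47 ± 0.11 (limma, adjusted p = 0.0067). Idi1 interconverts the basic isoprenoid units. Its controls stood at 1691 and 1477 and the Ets1-deleted arrays at 2089 and 2173, a rise of 0.43 ± 0.12. Pmvk, which adds the second phosphate to mevalonate, rose by 0.41 ± 0.12, from 897 and 946 to 1134 and 1316. Differences of this size were common: 19.9% of all tested genes differed by at least as much as Idi1 and 21.6% as much as Pmvk. The earlier kinase gene Mvk gave 303 and 272 against 335 and 304, a difference of 0.15 with a 95% confidence interval of -0.10 to 0.41. The decarboxylase gene Mvd overlapped between the groups, at 649.7 and 750.1 against 746 and 776 (0.12, interval -0.13 to 0.38). Neither Mvk nor Mvd passed. The Pmvk call was lost without control array 1 (0.37) or Ets1-deleted array 2 (0.30) and with the array floor subtracted (0.43). Idi1 no longer passed without control array 2 (0.33), with the floor subtracted (0.44) or with the mean over its probe sets (0.42). Neither did Fdps with the mean over its probe sets (0.20), which takes in a probe set below the limit. That probe set read 60.3 and 58.4 in the controls against 58.4 and 55.8, a difference of -0.06.

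**Figure D2:**
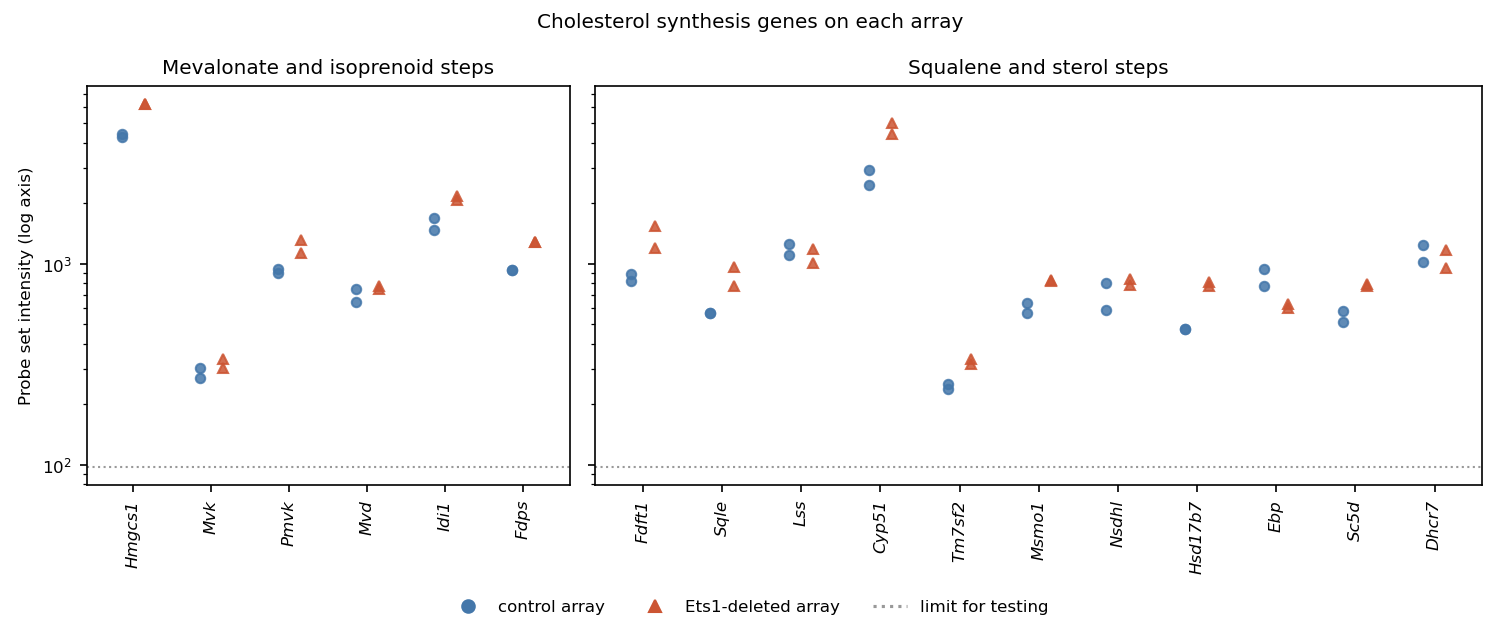
Probe set intensity (log axis) of the 17 measured synthesis genes on each array, controls as circles and Ets1-deleted arrays as triangles, with the limit for testing dotted. All genes lie above the limit; the triangles stand clear above the circles for Hmgcs1, Fdps, Cyp51 and Hsd17b7, and below them for Ebp.

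Among the 11 genes from squalene to cholesterol, 7 rose and 1 fell. Cyp51, the lanosterol demethylase, showed the widest difference of the synthesis genes. From 2474 and 2943 in the controls it went to 4423 and 5029, a rise of 1.75-fold (0.81 ± 0.13; limma, adjusted p = 0.00047). The lowest Ets1-deleted array stood above the highest control. Hsd17b7, the keto reductase of the demethylation steps, read 477 and 477 against 777 and 808 and rose by 0.73 ± 0.11 (limma, adjusted p = 0.000316). Fdft1, squalene synthase and the first enzyme committed to sterols, rose by 0.67 ± 0.13. Its controls were at 819 and 891, and the 2 Ets1-deleted arrays, at 1546 and 1193, lay further from each other than the controls did. Sqle, squalene epoxidase, read 573 and 572 against 776 and 969, a rise of 0.60 ± 0.13.

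Another 3 sterol genes rose by less than these. Sc5d, a sterol desaturase gene, read 579.8 and 513 in the controls and 793 and 775 in the Ets1-deleted arrays and rose by 0.52 ± 0.11. Msmo1, the methyl sterol oxidase gene, rose by 0.45 ± 0.11, from 641 and 567 to 824 and 827. Tm7sf2, a sterol reductase gene, rose by 0.42 ± 0.11, from 251 and 239 to 337 and 318. In these 3 genes both Ets1-deleted arrays stood above both controls. Ebp, the isomerase that shifts a double bond in the sterol ring, went the other way. It read 779.7 and 945 in the controls and 629 and 603 in the Ets1-deleted arrays, and fell by 0.48 ± 0.12 on the log2 scale (limma, adjusted p = 0.0122).

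The remaining sterol genes did not pass. Lss, which closes the ring to lanosterol, gave 1261 and 1108 against 1183 and 1015 (-0.11, interval -0.38 to 0.16). Dhcr7, the reductase of the last step, gave 1234 and 1025 against 1171 and 958 (-0.09, interval -0.38 to 0.21). Nsdhl, a dehydrogenase of the demethylation steps, gave 799 and 589 against 841 and 786 (0.25, interval -0.06 to 0.56). In Lss and Dhcr7 the groups overlapped, with the higher Ets1-deleted array between the controls; in Nsdhl control array 2 lay below the other 3 arrays, and without control array 1 the gene passed as higher (0.46). Without control array 2 the calls of Sc5d (0.44), Msmo1 (0.37), Tm7sf2 (0.38) and Ebp (-0.34) were lost, as was that of Tm7sf2 without Ets1-deleted array 1 (0.38). With the mean over probe sets the Fdft1 difference was 0.24 and did not pass.

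The promoter windows of 5 genes are shown because they cover the entry enzyme, the 2 widest synthesis rises, the synthesis gene that fell and the pump gene with the largest rise. They are the 250 bases before the RefSeq start in build GRCm38.p6, given 5′ to 3′ on the gene's strand. Capitals mark TCACNCCAC, a single strict form of the sterol response element, and CCAAT on either strand.
Hmgcs1, chr13:119690101-119690350, plus strand: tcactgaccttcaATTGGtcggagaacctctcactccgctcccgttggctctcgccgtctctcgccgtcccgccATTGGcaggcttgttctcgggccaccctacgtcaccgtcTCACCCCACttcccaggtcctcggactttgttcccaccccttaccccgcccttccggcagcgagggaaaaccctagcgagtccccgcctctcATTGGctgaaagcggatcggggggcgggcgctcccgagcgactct
Cyp51, chr5:4104698-4104947, minus strand: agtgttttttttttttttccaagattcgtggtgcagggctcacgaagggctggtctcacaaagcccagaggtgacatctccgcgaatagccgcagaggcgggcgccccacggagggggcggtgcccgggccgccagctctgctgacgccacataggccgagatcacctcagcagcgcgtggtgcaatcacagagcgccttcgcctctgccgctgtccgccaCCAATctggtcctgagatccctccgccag
Hsd17b7, chr1:169969206-169969455, minus strand: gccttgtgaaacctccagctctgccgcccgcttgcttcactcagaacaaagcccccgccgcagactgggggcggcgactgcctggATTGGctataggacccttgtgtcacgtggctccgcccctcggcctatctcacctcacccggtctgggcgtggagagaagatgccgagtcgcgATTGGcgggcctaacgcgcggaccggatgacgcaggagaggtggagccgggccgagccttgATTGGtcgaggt
Ebp, chrX:8193513-8193762, minus strand: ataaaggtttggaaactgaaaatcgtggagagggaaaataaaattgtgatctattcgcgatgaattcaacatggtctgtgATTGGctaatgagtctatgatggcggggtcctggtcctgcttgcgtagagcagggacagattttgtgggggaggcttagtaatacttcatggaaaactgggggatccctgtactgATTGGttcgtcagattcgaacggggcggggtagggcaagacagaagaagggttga
Abca1, chr4:53159896-53160145, minus strand: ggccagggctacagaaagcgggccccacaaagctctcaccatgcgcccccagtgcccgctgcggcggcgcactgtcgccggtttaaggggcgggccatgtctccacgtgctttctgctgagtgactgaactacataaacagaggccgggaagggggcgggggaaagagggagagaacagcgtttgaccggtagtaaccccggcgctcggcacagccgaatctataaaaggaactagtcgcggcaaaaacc
Windows were found for 26 of the 32 genes. TCACNCCAC was present in Hmgcs1, 137 bases before the start, and in no other of the 26, against 1.05% of all 32851 RefSeq windows. No other form of the sterol response element was sought, so its absence from the other windows is not shown. CCAAT, the core bound by NF-Y, was found on either strand in 14 of 15 synthesis genes with a window, among them the uncalled Mvk, Mvd, Lss, Nsdhl and Dhcr7 and the fallen Ebp. It occurs in 33.8% of all windows and in at least 1 window of 40.4% of the 8831 tested genes that have one. The GC box GGGCGG, also sought on both strands, was found in 14 of the 15 as well, against 32.7% of all windows and 64.4% of those tested genes. CCGGAAG, an ETS core, was found on either strand for 5 of the 26 (Hmgcs1, Insig2, Npc2, Dhcr7 and Nr1h2), against 6.91% of all windows and 16.5% of the tested genes. In the 5 windows shown, 1 pair of matches to different motifs overlapped, a GC box and the ETS core of Hmgcs1. These matches describe letters in a window and were not set against any measurement of binding.

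Among the regulators, both SREBP genes rose. Srebf2, whose product SREBP-2 chiefly drives cholesterol synthesis, went from 1346 and 1466 in the controls to 2436 and 1797. It rose 1.49-fold (0.57 ± 0.14; limma, adjusted p = 0.0105), with Ets1-deleted array 1 the higher of the pair, and without that array the difference was 0.35 and no longer passed. Srebf1, whose product SREBP-1 also serves fatty acid synthesis, read 614 and 689 against 972 and 938 and rose by 0.55 ± 0.11 (limma, adjusted p = 0.00324). Both genes' groups stood clear of each other. Insig2, a brake on SCAP, rose by 0.34 ± 0.11, from 274 and 270.5 to 355 and 333. Its call was the least steady of the regulators: it was lost without control array 1 (0.35), control array 2 (0.33) or Ets1-deleted array 1 (0.29), with the floor subtracted (0.41) and with the mean over probe sets (0.10). Insig1, the other brake and itself an SREBP target, overlapped between the groups at 1794 and 1616 against 2229 and 1748, a difference of 0.21 with an interval of -0.08 to 0.50. Scap gave 294 and 305 against 305 and 267 (-0.07, interval -0.32 to 0.18) and did not pass.

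Genes of lysosomal release and transport had no common direction: of 4 tested, 1 rose and 1 fell. None of the 4 encodes a lipoprotein receptor, so they do not describe uptake from outside the cell. Npc2, the lysosomal protein that hands cholesterol to NPC1, read 2596 and 2407 in the controls and 3542 and 3219 in the Ets1-deleted arrays, a rise of 0.43 ± 0.11 (limma, adjusted p = 0.0138). Npc1, its membrane partner, gave 411 and 433 against 345 and 404, a difference of -0.18 with an interval of -0.43 to 0.08. Lipa, the acid lipase that frees cholesterol from esters in the lysosome, fell by 0.43 ± 0.15 on the log2 scale. Its controls read 669.6 and 623 and the Ets1-deleted arrays 407 and 564, and most of the spread came from that last pair. Stard4, a soluble carrier of cholesterol between membranes, gave 793 and 732 against 707 and 612 (-0.21, interval -0.47 to 0.05). For Npc1, Lipa and Stard4 both Ets1-deleted arrays stood below both controls, which was common, being so for 31.7% of all tested genes. The Npc2 call was lost without control array 2 (0.38) or Ets1-deleted array 1 (0.37), with the floor subtracted (0.44) and with the mean over probe sets (0.16). The Lipa call (limma, adjusted p = 0.0474, with 0.00169 to 0.418 over the alternatives) was lost without control array 1 (-0.38) or Ets1-deleted array 1 (-0.20), after median centring (-0.42), with the floor subtracted (-0.48), and without the filter or with 1 row per probe set (-0.43 in both).

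**Figure D3:**
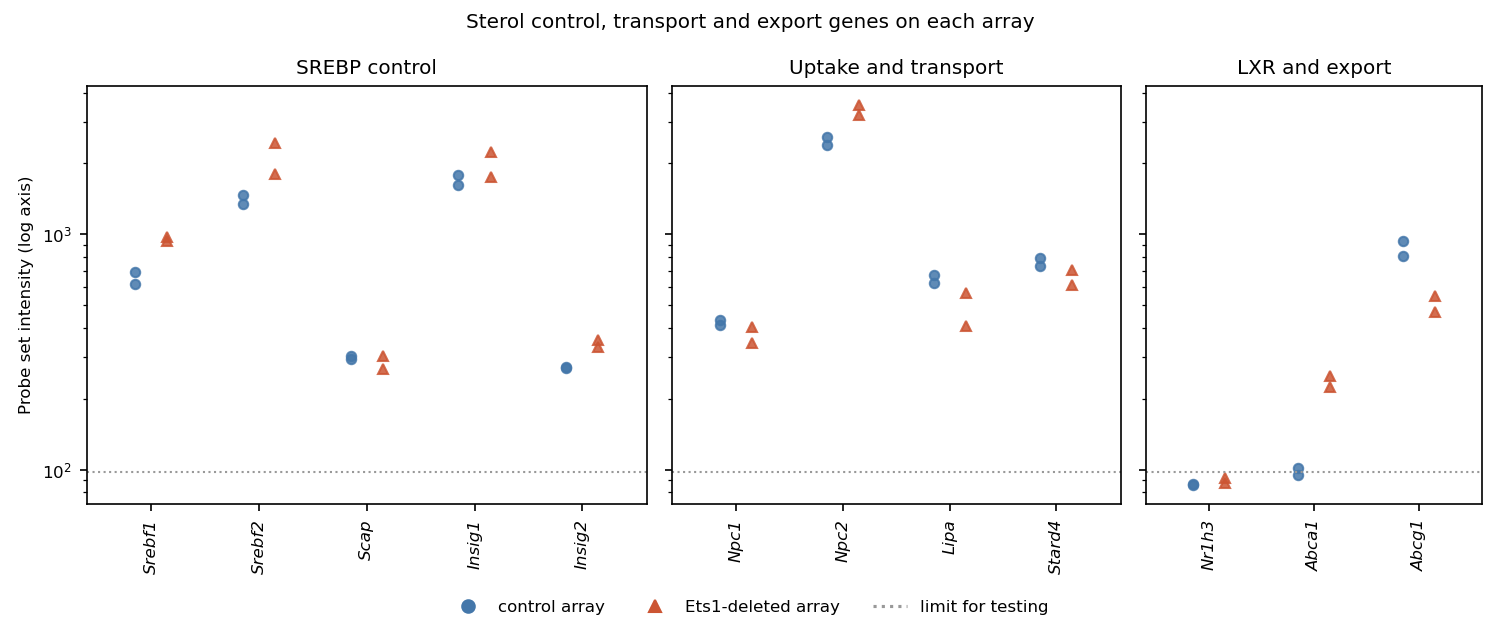
Probe set intensity (log axis) of the 12 measured regulation, transport and export genes on each array, controls as circles and Ets1-deleted arrays as triangles, with the limit for testing dotted. Abca1 rises from the limit in the controls, at 94.55 and 101.6, to 249 and 225, whereas Abcg1 lies lower in both Ets1-deleted arrays and Nr1h3 stays below the limit.

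The 2 export pumps moved in opposite directions. Abca1, which loads cholesterol and phospholipid onto lipid-poor apolipoprotein, read 94.55 and 101.6 in the controls and 249 and 225 after deletion. It rose by 1.27 ± 0.11 (2.42-fold; limma, adjusted p = 5.41e-06), a size that 2.62% of all tested genes reached. The controls sat at the limit, and with the array floor subtracted the difference was 2.11. In the same arrays the 6 tested myeloid markers were called higher, by 0.36 (Mpo) to 1.18 (Fcgr3). Of these, Adgre1 passed the limit only through its Ets1-deleted arrays. Cd14 (0.11) and Itgam (-0.03) were below the limit. The part of the myeloid markers in the Abca1 difference was not tested. Abcg1, which moves cholesterol to formed lipoprotein particles, read 933 and 807 against 549 and 467 and fell by 0.78 ± 0.13 (1.71-fold; limma, adjusted p = 0.000621). In each pump gene the groups lay far apart compared with either pair. Nr1h3, which encodes the receptor LXR alpha, was below the limit on all arrays, at 87.25, 85.8, 87.5 and 91.9 intensity units, and was not tested.

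The further probe sets gave the same sign for most, but not all, of these genes. The 29 measured genes had 64 probe sets, 58 of them above the limit. Of the 19 called genes, 13 had more than 1 bright probe set, meaning one above the limit; in 9 of these all bright probe sets shared the sign, and in 6 a further probe set passed the same way when fitted with 1 row per probe set. Cyp51 gave 0.71 and 0.53 on its other probe sets and Hsd17b7 0.65 and 0.61 on its other bright ones. Abca1 gave 0.84 on its second bright probe set and 0.64 on one below the limit, and Lipa -0.37 and -0.54. Both of these further Lipa probe sets passed as lower with 1 row per probe set, where its brightest did not. Hmgcs1 gave 0.92, 0.79 and 0.65 on 3 further probe sets and -0.01 on the dimmest, which read 94.8 to 111 intensity units. Fdft1 gave 0.47 on a second bright probe set, while its 2 dimmest, at 103 to 125 units and above the limit, gave -0.06 and -0.11. Abcg1 gave -0.25 on a second probe set that did not pass, Srebf2 0.18, Npc2 0.22 and 0.11, and Insig2 0.08 and -0.13. The probe sets of Stard4 agreed closely, at -0.21, -0.28 and -0.26, although none passed (0 of its 3 called).

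**Figure D4:**
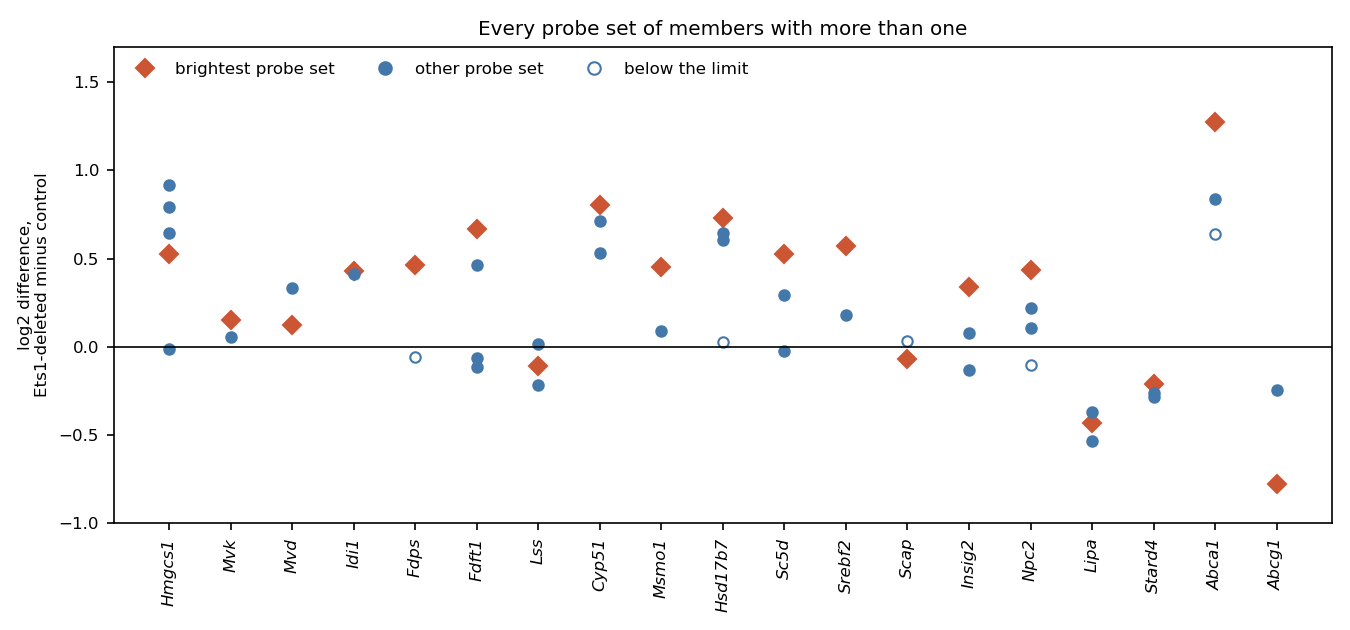
Log2 difference (Ets1-deleted minus control, vertical axis) of every probe set of the 19 measured genes that have more than 1; diamonds are the brightest probe sets, circles the others, and open circles those below the limit. Cyp51, Abca1, Lipa, Stard4 and Abcg1 keep 1 sign on all their probe sets. By contrast, Hmgcs1, Fdft1, Sc5d, Insig2 and the uncalled Lss each have a bright probe set of the sign opposite to their brightest.

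Other genes of sterol, isoprenoid and SREBP-linked lipid metabolism came from a list of 48, of which 44 were measured and 40 tested. Of these, 12 rose (30%) and 4 fell (10%), against 13.9% and 12.8% of all tested genes, with a median of 0.09 over the 44. One of the 12 is Vldlr, a lipoprotein receptor gene. Its controls, at 63.3 and 62.7, lay below the limit and its Ets1-deleted arrays at 294 and 355, so it was tested through the higher group alone and had to differ. Against the limit the Ets1-deleted mean was at least 3.32-fold higher. Of the 39 tested genes with both group means above the limit, 11 rose (28.2%) and 4 fell (10.3%). Fads2, a fatty acid desaturase gene, rose by 1.39 ± 0.11 and Lpcat3, a phospholipid acyltransferase gene known as an LXR target, by 1.02 ± 0.13. The acetyl-CoA synthetase gene Acss2 rose by 0.55 ± 0.11, the sorting receptor gene Sort1 by 0.55 ± 0.12 and Osbpl9, of the oxysterol-binding protein family, by 0.49 ± 0.11. The other bright probe sets of Osbpl9 gave 0.21, -0.22 and -0.11, and those of Fads2 0.50 and 0.08. Falls were seen in Rnf139, an ubiquitin ligase gene of the sterol-regulated degradation machinery (-0.57 ± 0.12), Abca7, a pump gene related to Abca1 (-0.53 ± 0.12), the elongase gene Elovl6 (-0.49 ± 0.13) and Scarb2, a lysosomal membrane protein gene (-0.44 ± 0.12). Of the 10 genes named from the list, 7 had more than 1 bright probe set, and in 6 of these, all but Osbpl9, the signs were shared. Fasn, fatty acid synthase and a further SREBP-1 target, differed by -0.21 ± 0.11 and Mylip, an LXR target, by -0.23 ± 0.11, and neither passed. Fasn and Mylip were named for their known regulation, after their values were seen. Other fatty acid genes of the list did not share their sign throughout. Mid1ip1 was called higher (0.41 ± 0.12), and Scd2 (0.25), Acaca (0.20), Acly (-0.01) and Fads1 (-0.03) did not pass. The further probe sets of Scd2 gave 0.44 and 0.64 and passed as higher with 1 row per probe set.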

How the data were processed

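RNA of sorted cells was amplified and biotin-labelled, per the labels' protocols. The deposited intensity values are probe set summaries that the authors made with RMA, per the submitters' processing notes; the sources used here do not name the software, its version or any later scaling. They were read as linear, an inference from their range, and turned into log2 with no added constant. Of 45101 probe sets, 34958 carry 1 gene symbol, 932 several and 9211 none in the annotation used. A gene was tested where its brightest probe set had a geometric mean at or above the median over all probe sets (percentile 50, 97.4 intensity units), which left 10873. The model was limma 3.58.1 in R 4.3.3 (lmFit, eBayes), two-sided; p-values of the tested genes were adjusted together (Benjamini-Hochberg, threshold 0.05), with 2 residual and 9.75 prior degrees of freedom. The code was tested on simulated data.

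The genes, lists and alternatives were chosen with earlier results of these data known. All 32 genes are named, and from the list of 48 other genes the 10 called with the widest differences. Fasn, Mylip and the fatty acid genes set beside them were added after their values were seen. With 2 arrays in each group the lowest p that an exact permutation test allows is 0.333. Whether the arrays stem from different animals or cultures is not stated, so the p-values reflect the spread among these samples, possibly technical only. The number of arrays limits the precision. Promoter windows come from RefSeq. Tried as alternatives were median centring, quantile normalization applied again, the filter left out or made stricter (percentile 70), averaging each gene's probe sets, 1 row per probe set, a replicate block, other variance models, subtraction of each array's percentile 5 with a floor of 16 units, and each array left out.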

Additional observations from a re-analysis of the deposited data

How the results depend on the processing

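Of the 28 tested genes, 25 kept their direction in every alternative run; Dhcr7, Lss and Scap, none of them called, did not when an array was left out. Dhcr7 ranged from -0.23 to 0.058, Lss from -0.22 to 0.0018 and Scap from -0.16 to 0.026. Calls were less steady than directions. Only 5 of the 28 kept both their direction and their call status in every alternative, Insig1, Mvd, Mvk, Npc1 and Stard4, none of them called. Dhcr7, Lss and Scap, which changed direction, also stayed uncalled in every alternative. Every called gene lost its call in at least 1 alternative, 18 of them with each gene's own variance alone. Abca1 was too dim to be tested under the stricter filter. With any 1 array left out, synthesis genes called higher numbered 7 to 11 and lower 0 to 1, and handling genes called higher 2 to 5 and lower 1 to 2. Of 11, 1, 5 and 2 such calls, each gene's own variance left 1, 0, 0 and 0, with 13 genes called over the whole array in place of 2900. Handling genes called higher were 3 with the mean over probe sets or the array floor subtracted. Those called lower were 1 after median centring, without the filter, with 1 row per probe set or with the floor subtracted, since the brightest probe set of Lipa no longer passed. The cause was not tested. Repeated quantile normalization, a variance trend and robust variances changed none of the 28 calls (0 lost or gained).

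Replicate numbers are shared by the groups, but nothing in the labels pairs the samples; deviations of same-numbered arrays correlated with r = 0.17 across genes, which are not independent replicates. With the number as a replicate block, 3252 genes passed, and the calls of all 28 stayed as they were (11 and 1 synthesis genes, 5 and 2 handling genes). Intensities near the limit understate folds, which bears on Abca1.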
